A study of Mus musculus with 20 samples.

Results

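The 7 genes described here carried some of the largest weights on the first principal component of 20 RNA-Seq libraries from mouse brain, the axis along which hippocampus and cortex separated. They are *Nts*, *Car12*, *St18*, *Trpa1*, *Hspb3*, *A830009L08Rik* and *A830029E22Rik*, 7 of the 47729 genes counted. They were chosen by these weights and because no other gene family under study held them, so their difference between the regions is a description and carries no test. The study used RNA-Seq to ask what an excess of the ubiquitin ligase UBE3A does to the developing brain. Cortices and hippocampi were dissected at postnatal day 7 from 10 C57Bl/6J mice, 5 of them WT (mice 1 to 5) and 5 Ube3aOE (mice 6 to 10), and each mouse gave 1 library of each tissue. Ube3aOE mice carry a pair of extra *Ube3a* copies in a bacterial artificial chromosome with long flanking stretches, which follows the gene's own expression pattern rather than that of 1 cell type, and WT mice carry no transgene. All libraries are whole pieces of dissected tissue and so hold every cell type of the piece.

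The hippocampus and the neocortex are both built around excitatory neurons, interneurons and glia, but their neurons follow different developmental programs, and many genes mark one of them in the first postnatal weeks. *Nts* encodes the precursor of the neuropeptide neurotensin, which acts on G protein-coupled receptors, and *Car12* a carbonic anhydrase of the cell surface that interconverts carbon dioxide and bicarbonate. *St18* encodes a zinc finger transcription factor of the Myt family, *Trpa1* a cation channel best known as the irritant sensor of sensory neurons, and *Hspb3* a small heat shock protein best known from muscle. *A830009L08Rik* and *A830029E22Rik* are annotated as long intergenic noncoding RNAs.

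Upstream sequence was held for 5 of the 7 genes in the RefSeq promoter set of GRCm38.p6, and 4 stretches are shown because pairs of genes with the same direction shared a short motif in them. The capitals in the *Nts* and *Car12* stretches mark ATGACATCAT, the longest run of letters that both windows share. The longest run that the windows of the other pair share is ACAAGGCAG (9 bases), and the capitals there instead mark TATAAA, the core of the TATA box. Each is given 5′ to 3′ on the strand of its gene, for *Nts* chr10:102490477-102490668 (minus strand), for *Car12* chr9:66713436-66713685 (plus strand), for *Hspb3* chr13:113663677-113663926 (minus strand) and for *A830029E22Rik* chr3:81801775-81802024 (plus strand).
Nts: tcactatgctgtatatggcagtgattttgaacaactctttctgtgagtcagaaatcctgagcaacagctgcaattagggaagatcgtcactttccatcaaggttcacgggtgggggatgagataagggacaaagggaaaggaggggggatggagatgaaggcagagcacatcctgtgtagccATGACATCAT
Car12: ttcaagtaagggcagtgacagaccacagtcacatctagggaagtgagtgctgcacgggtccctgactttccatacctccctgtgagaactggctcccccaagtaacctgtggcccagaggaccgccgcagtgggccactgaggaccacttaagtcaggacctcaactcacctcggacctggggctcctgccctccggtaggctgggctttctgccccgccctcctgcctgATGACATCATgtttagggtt
Hspb3: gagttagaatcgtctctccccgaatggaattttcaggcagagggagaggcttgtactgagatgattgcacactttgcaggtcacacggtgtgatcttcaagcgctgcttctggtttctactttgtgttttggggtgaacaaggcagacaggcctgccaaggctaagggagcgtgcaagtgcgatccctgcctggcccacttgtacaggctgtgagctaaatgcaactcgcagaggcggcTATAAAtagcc
A830029E22Rik: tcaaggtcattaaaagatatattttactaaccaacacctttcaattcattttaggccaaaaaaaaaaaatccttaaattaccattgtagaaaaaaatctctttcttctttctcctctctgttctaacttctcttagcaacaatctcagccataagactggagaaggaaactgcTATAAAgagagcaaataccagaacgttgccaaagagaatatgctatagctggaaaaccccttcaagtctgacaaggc
ATGACATCAT began 20 bases before the annotated start of *Car12* and 68 bases before the RefSeq start of *Nts*. GENCODE starts *Nts* 68 bases upstream of RefSeq, at the first base of the motif, so the motif lies inside the GENCODE model. The *Nts* stretch shown ends with the motif. On either strand the motif was present in 0.347% of 32817 promoter windows of the same length, from 250 bases before to 50 bases after the start. It was picked after the sequences had been seen, as 1 of 10 pairwise comparisons. *Car12* and *A830009L08Rik*, which went in opposite directions between the regions, shared another run of 10 bases. TATAAA began 11 bases before the start of *Hspb3* and 77 bases before that of *A830029E22Rik*, and 13.6% of the windows held it on either strand. The window of *A830009L08Rik* held neither motif. These matches are descriptions of letters, and binding was not measured.

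In ranks by absolute weight on the first component, which held 65.3% of the variance of the 500 most variable genes, *Trpa1* (rank 2, weight -0.100), *A830009L08Rik* (rank 3, -0.0998), *Nts* (rank 6, 0.0919), *Hspb3* (rank 8, -0.0845), *A830029E22Rik* (rank 9, -0.0820), *Car12* (rank 10, 0.0810) and *St18* (rank 11, 0.0803) stood among the first 11. A positive weight means a higher level in hippocampus. Only *Lhx9* lay above the first of them, with a weight of 0.122, and *Neurog2* lay directly below the last, with 0.0798. The genes were chosen by such weights, so these ranks restate the choice and carry no test. The ranks depended on the scale. With a prior count of 0.5 instead of 2 in log2 CPM, *Car12* and *St18* fell to ranks 27 and 28. With a variance stabilizing transformation only *Nts* and *Trpa1* (ranks 4 and 13) stayed among the first 20 genes, and the other 5 ranked from 21 to 104.

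Library totals ranged from 14191093 to 16752326 reads on genes, and *Ube3a* separated the genotypes, with 54.4 to 76.8 CPM (reads scaled to a common library size) in WT and 130 to 195 CPM in Ube3aOE libraries of both tissues. A few libraries stood apart from their tissue. The cortex libraries of Ube3aOE mice 8 and 9 had scores of -7.58 and -11.1 on the first component, whereas the other 8 cortex libraries lay between -32.0 and -23.8. The hippocampus libraries of WT mouse 2 and Ube3aOE mouse 9 had scores of 11.3 and 17.0, and the other 8 lay between 25.0 and 29.1. Results that rest on these libraries are given with and without them.

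*Nts*, *Car12* and *St18* were high in hippocampus and low in cortex, and *Trpa1*, *Hspb3*, *A830009L08Rik* and *A830029E22Rik* the reverse. For none of the 7 did the 10 hippocampus libraries overlap the 10 cortex libraries, a property that the choice by weight favors and that 9.27% of the 15661 genes tested between the regions shared (5.52% higher in hippocampus and 3.74% higher in cortex). Levels below are CPM scaled by TMM (trimmed mean of M values) factors. In whole tissue, fewer cells of a type and less RNA per cell cannot be told apart.

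*Nts* (ENSMUSG00000019890; GRCm38 chr10:102481756-102490486, minus strand) had the highest level per length of the 7 genes in hippocampus, 64.3 ± 16.8 CPM per kilobase of exon (SD, n = 10). In hippocampus its levels were 83.1, 111, 87.8, 52.7 and 68.7 CPM in WT mice 1 to 5 and 76.4, 95.9, 101, 82.2 and 43.3 CPM in Ube3aOE mice 6 to 10. In cortex they were 2.11, 3.74, 4.99, 0.769 and 1.43 CPM in WT mice, and 3.87, 1.16, 25.5, 29.4 and 2.15 CPM in Ube3aOE mice. The genotypes overlapped in both tissues, and the cortices of mice 8 and 9 were the highest of the 10. Within mice, *Nts* was higher in hippocampus by 4.37 ± 1.57 on the log2 scale (SD, n = 10), from 1.48 in mouse 9 to 6.22 in mouse 7. The regional means differed 10.7-fold.

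*Car12* (ENSMUSG00000032373; chr9:66713686-66766845, plus strand) was read at 23.3, 13.5, 18.9, 17.9 and 24.0 CPM in the hippocampi of WT mice and at 22.9, 18.8, 20.9, 15.1 and 10.7 CPM in those of Ube3aOE mice. Its cortex levels were 0.829, 0.299, 0.777, 0.834 and 0.622 CPM in WT mice and 0.889, 0.582, 3.64, 4.33 and 1.33 CPM in Ube3aOE mice. Cortices 6, 8, 9 and 10 lay above every WT cortex, 8 and 9 by far the most, while the hippocampi of the genotypes overlapped. The means of the regions differed 13.2-fold, and the difference within mice was 3.97 ± 1.15 (log2, SD, n = 10). Carbonic anhydrase 12 faces the outside of the cell, unlike the abundant cytosolic enzyme of *Car2*.

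*St18* (ENSMUSG00000033740; chr1:6487231-6860940, plus strand) spans 373710 bases, the most of the 7 genes. Hippocampus libraries held 28.8, 23.1, 26.4, 16.9 and 17.6 CPM of it in WT mice and 23.5, 15.5, 30.5, 22.3 and 11.7 CPM in Ube3aOE mice. In WT cortices the levels were 0.766, 1.12, 2.01, 0.641 and 0.622 CPM, and in Ube3aOE cortices 1.33, 0.452, 9.25, 8.30 and 0.506 CPM. Cortices 8 and 9 were again the highest of the 10, and cortices 7 and 10 lay below every WT cortex. The gap to the lowest hippocampus library (11.7 CPM, mouse 10) was then small, and the regional means differed 8.65-fold, the least of the 7. *St18* was higher in hippocampus by 3.80 ± 1.25 within mice (log2, SD, n = 10).

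**Figure D1:**
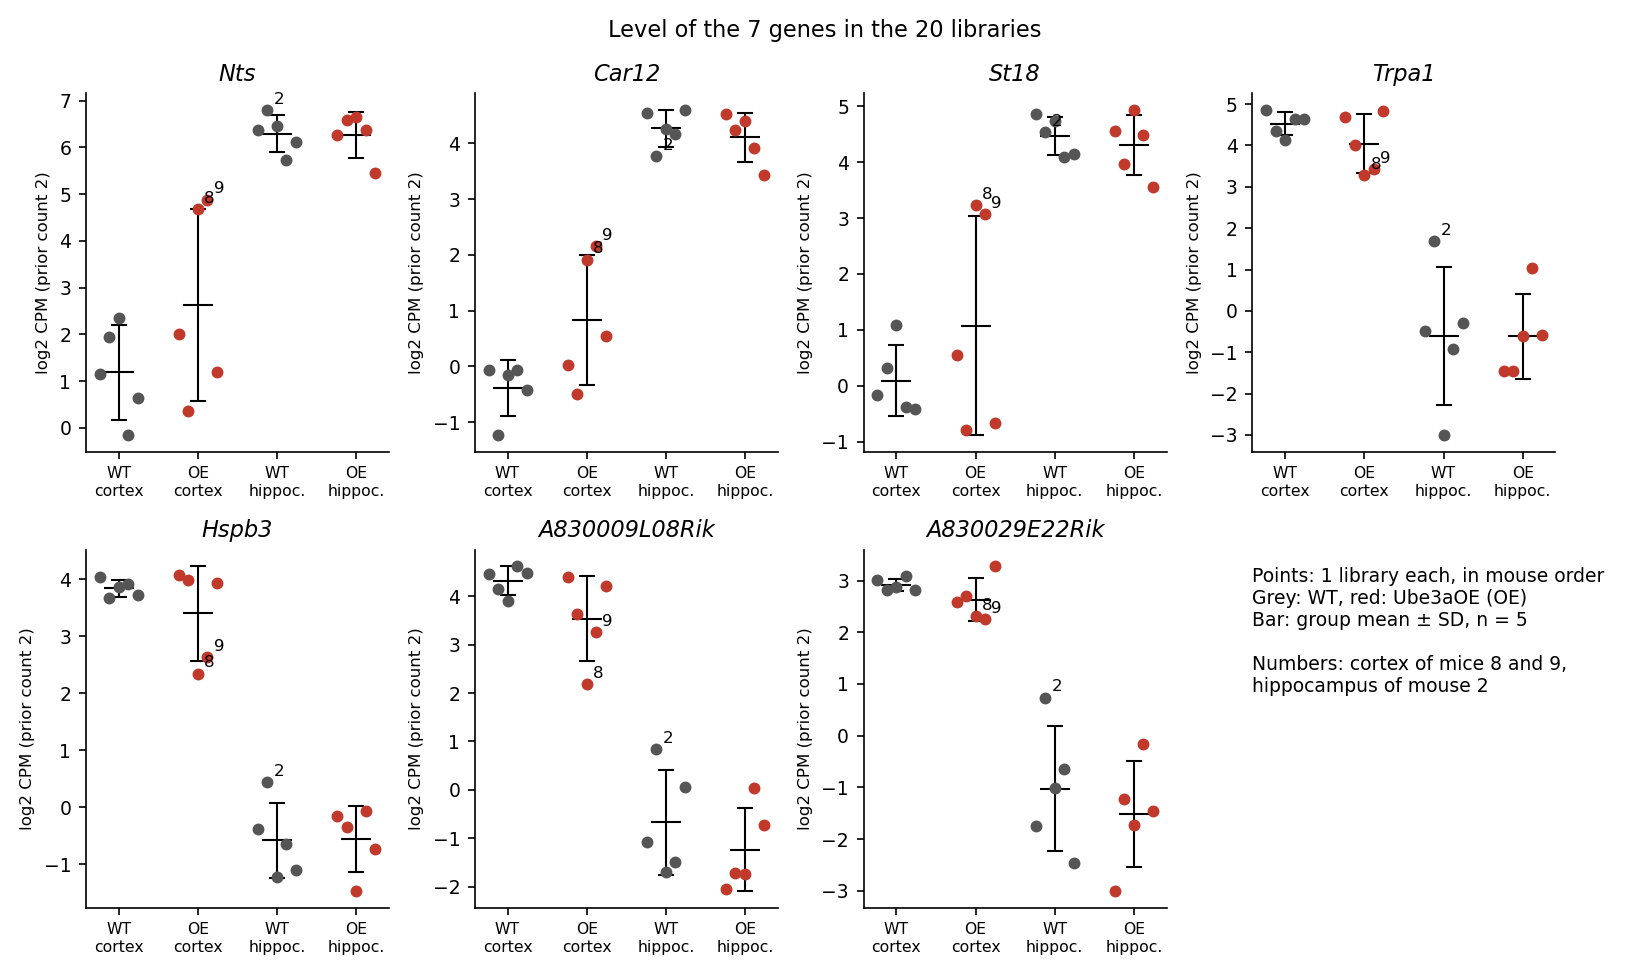
Level of each gene in the 20 libraries, as log2 CPM with a prior count of 2, by genotype and tissue (1 point per library, bars for the group mean ± SD, n = 5). *Nts*, *Car12* and *St18* sit high in hippocampus and the other 4 genes high in cortex, and the numbered cortices of mice 8 and 9 lie between their tissue and the other.

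*Trpa1* (ENSMUSG00000032769; chr1:14872648-14918862, minus strand) led the genes that were high in cortex. WT cortices held 29.0, 20.3, 17.4, 24.8 and 24.8 CPM and Ube3aOE cortices 25.7, 16.0, 9.55, 10.6 and 28.2 CPM. WT hippocampi held 0.586, 3.08, 0, 0.402 and 0.693 CPM, where the 0 of mouse 3 allows up to 0.185 CPM (3 counts), and Ube3aOE hippocampi 0.238, 0.241, 0.532, 1.93 and 0.539 CPM. Genotypes overlapped in both tissues, cortices 8 and 9 were the lowest, and hippocampi 2 and 9 were the highest, with 50 and 30 reads against at most 12 in the other 8. *Trpa1* was lower in hippocampus by a mean of -4.90 ± 1.50 within mice (log2, SD, n = 10), and the regional means differed 25.1-fold. A channel known mainly from peripheral sensory neurons was thus read in every cortex library, at 160 to 454 reads.

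*Hspb3* (ENSMUSG00000051456; chr13:113662896-113663676, minus strand) has 1 exon of 781 bases and the highest level per length among the genes high in cortex, at 16.7 ± 5.33 CPM per kilobase there (SD, n = 10). Its cortex levels were 16.3, 12.6, 14.4, 15.0 and 13.1 CPM in WT mice and 16.8, 15.8, 4.95, 6.10 and 15.2 CPM in Ube3aOE mice. In hippocampus it reached at most 1.23 CPM (mouse 2), with a median of 0.581 CPM over the 10 libraries. Without cortices 8 and 9 the remaining 8 lay within 12.6 to 16.8 CPM, a coefficient of variation of 9.87%, the narrowest of the genes high in cortex. The difference within mice was -4.18 ± 0.74 (log2, SD, n = 10) and that of the means 21.6-fold.

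The noncoding *A830009L08Rik* (ENSMUSG00000097182; chr13:91368990-91388085, minus strand) showed the largest ratio of regional means, 32.0-fold. Its cortex levels were 21.9, 17.7, 14.8, 24.7 and 22.2 CPM in WT mice and 20.9, 12.3, 4.42, 9.46 and 18.4 CPM in Ube3aOE mice, against a hippocampus median of 0.291 CPM and maximum of 1.66 CPM (mouse 2). It overlaps the gene model *Gm29540* on the same strand, so reads in the shared part could not be assigned to either with certainty. The difference within mice was -4.89 ± 1.13 (log2, SD, n = 10).

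*A830029E22Rik* (ENSMUSG00000103695; chr3:81802025-81805161, plus strand) had the fewest reads in its high region, 76 to 152. WT cortices held 7.91, 6.95, 7.19, 8.34 and 6.91 CPM and Ube3aOE cortices 5.91, 6.40, 4.83, 4.64 and 9.62 CPM, so that cortices 8 and 9 were again lowest but lay close to the rest. Hippocampus levels ran from 0 (mouse 6, which allows up to 0.179 CPM) to 1.54 CPM (mouse 2), with a median of 0.271 CPM. The means differed 16.6-fold, and the difference within mice was -4.05 ± 1.13 (log2, SD, n = 10). Per kilobase of exon, the cortex levels of *A830009L08Rik*, *A830029E22Rik* and *Trpa1* were 5.94 ± 2.28, 5.75 ± 1.29 and 4.84 ± 1.65 CPM (SD, n = 10), which differ by less than the spread between mice.

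**Figure D2:**
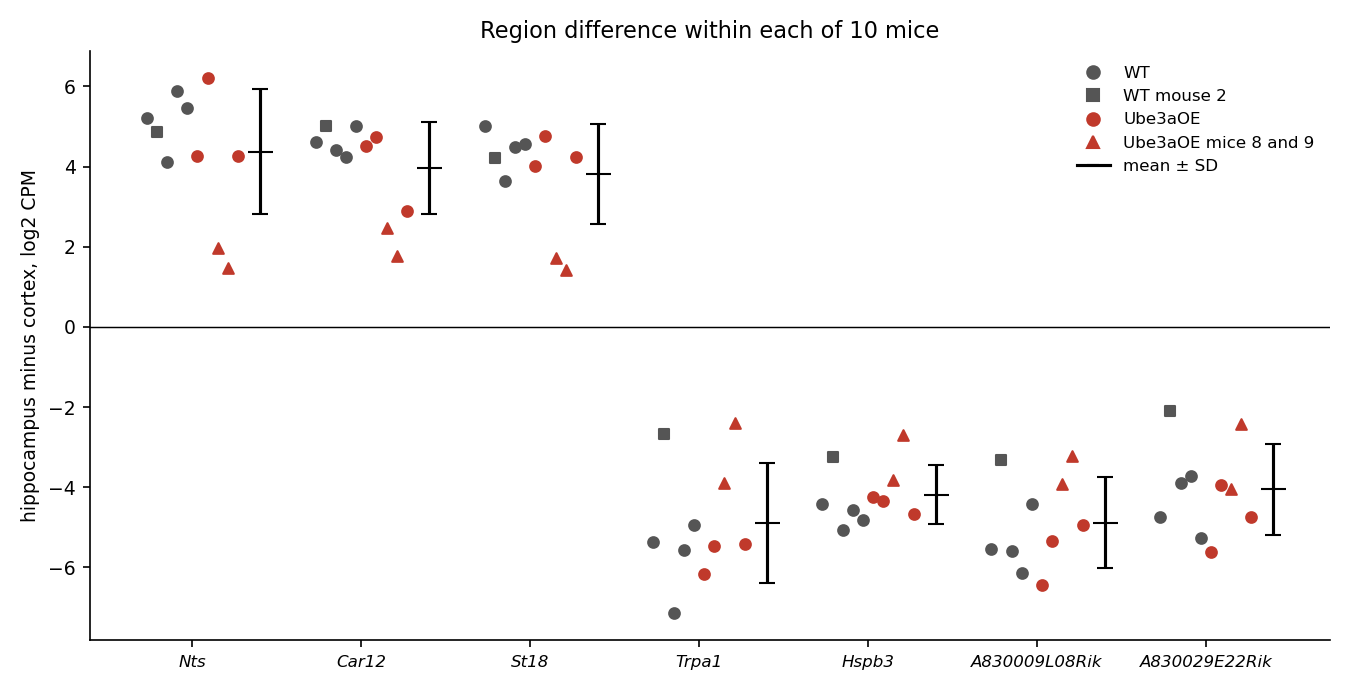
Hippocampus minus cortex of each mouse on the log2 CPM scale (prior count 2), with the mean ± SD of the 10 mice at the right of each gene. All 10 mice lie on one side of 0 for each gene, and mouse 9 (the right triangle of each pair) is nearest to 0 for every gene other than *A830029E22Rik*, where mouse 2 (square) is nearer.

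Leaving out the mice whose libraries stood apart (2, 8 and 9) made each difference larger and its spread smaller. For *Nts* it was 5.06 ± 0.86, for *Car12* 4.35 ± 0.69 and for *St18* 4.39 ± 0.47 (log2, SD, n = 7). On the side of cortex it was -5.72 ± 0.73 for *Trpa1*, -4.58 ± 0.29 for *Hspb3*, -5.48 ± 0.68 for *A830009L08Rik* and -4.56 ± 0.73 for *A830029E22Rik*.

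In the cortices of mice 8 and 9, all 7 genes lay outside the range of the other 8 cortices, the 3 hippocampal genes above it and the 4 cortical genes below it. Over all genes tested, 9.41% lay above that range in both libraries and 8.51% below it, and since the weights were computed with these libraries no test is given. Against the median of the other cortices, *Nts* was at 12.0 and 13.8 times, *St18* at 13.1 and 11.8 times and *Car12* at 4.53 and 5.39 times. The cortical genes were at lower multiples, 0.225 and 0.482 for *A830009L08Rik* and 0.328 and 0.404 for *Hspb3*. For *Trpa1* they were 0.385 and 0.428, and for *A830029E22Rik* 0.683 and 0.656. Measured against the hippocampus of the same mouse, *Nts* reached 25.4% and 35.7%, *St18* 30.3% and 37.2% and *Car12* 17.4% and 28.8%.

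Markers of the other tissue moved with these values. The summed level of the 5 hippocampus markers (*Prox1*, *Zbtb20*, *C1ql2*, *Dsp* and *Fibcd1*) was 130 and 121 CPM in cortices 8 and 9 and 34.3 to 61.4 CPM in the other 8, with 3 of the 5 above the range of the others. *Prox1*, a transcription factor of dentate granule cells, was at 25.1 and 23.6 CPM against 10.5 to 14.3 CPM, and *Fibcd1* at 54.7 and 44.1 CPM against 5.17 to 10.2 CPM. The sum of the 4 neocortex markers (*Rorb*, *Cux2*, *Fezf2* and *Lamp5*) was 210.4 and 248 CPM against 270.4 to 339.9 CPM, with 1 of the 4 below the range of the others. That one was *Cux2*, a transcription factor of upper-layer neurons, at 104 and 128 CPM against 146 to 191 CPM. Cajal-Retzius markers (5 of 6), interneuron markers (3 of 4), choroid plexus markers (3 of 6) and thalamus markers (2 of 4) were also above the range of the other cortices, and 3 of 6 oligodendrocyte markers below it. The part of tissue content in the values of the 7 genes was not tested.

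The hippocampus of mouse 2 showed the mirror image for the cortical genes and not for the hippocampal ones. It was the highest hippocampus for all 4 cortical genes, at 5.78 times the median of the others for *Trpa1*, 7.23 times for *A830009L08Rik*, 6.42 times for *A830029E22Rik* and 2.38 times for *Hspb3*. *Nts*, *St18* and *Car12* stood at 1.36, 1.04 and 0.715 times that median. The cortical genes had 20 to 50 reads in this library. The weights that chose the genes were computed with all hippocampus libraries, so no test is given. The share of all genes at their extreme in any 1 hippocampus was not counted. The 5 hippocampus markers summed to 273 CPM in this library and to 256 to 465 CPM in the other hippocampi. *Prox1* (67.6 CPM against 75.1 to 184 CPM) and *C1ql2* (2.89 CPM against 4.29 to 14.6 CPM) were at their lowest in it, and the other hippocampus markers were not. The neocortex markers summed to 167 CPM there and to 105 to 145 CPM in the other hippocampi, with 2 of the 4 at their highest in it, *Cux2* at 58.3 CPM against 30.8 to 51.8 CPM and *Fezf2* at 83.6 CPM against 26.8 to 70.9 CPM. *Rorb* (8.80 CPM) and *Lamp5* (16.6 CPM) lay within the range of the other hippocampi. *Fezf2*, a transcription factor of deep-layer neurons, had like means in both tissues, 57.3 ± 15.7 CPM in hippocampus and 58.3 ± 7.11 CPM in cortex (SD, n = 10), whereas *Cux2* was at 41.3 ± 9.53 and 164 ± 28.9 CPM. In the hippocampus of mouse 9, which ranked first or second for 3 of the 4 cortical genes, the neocortex sum was 145 CPM and the sum of the 6 striatum markers 516 CPM, against 42.2 to 67.4 CPM in the other hippocampi.

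In the hippocampus of mouse 10 *Nts*, *Car12* and *St18* were all at their lowest, and the 4 thalamus markers summed to 699 CPM, against 57.6 to 378 CPM in the other 9. The 5 hippocampus markers summed to 389 CPM in it and to 256 to 465 CPM in the others. Hippocampus 7, with the 378 CPM of thalamus markers, had *Nts*, *Car12* and *St18* at 95.9, 18.8 and 15.5 CPM. A link between these values was not tested. The choroid plexus makes *Ttr* in large amounts, and the 6 choroid plexus markers summed to 1959 CPM in the hippocampus of mouse 7. Their sum was 349 CPM in hippocampus 9 and 8.57 to 33.2 CPM in the remaining ones. *Car12*, which epithelia are known to express, was at 18.8 CPM in hippocampus 7 and 15.1 CPM in hippocampus 9. Its median over the 10 hippocampi was 18.9 CPM. Whether choroid plexus contributes to the *Car12* level was not tested. Cholinergic markers reached 11.8 and 10.3 CPM in hippocampi 9 and 10 and 1.91 to 3.98 CPM in the other 8.

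**Figure D3:**
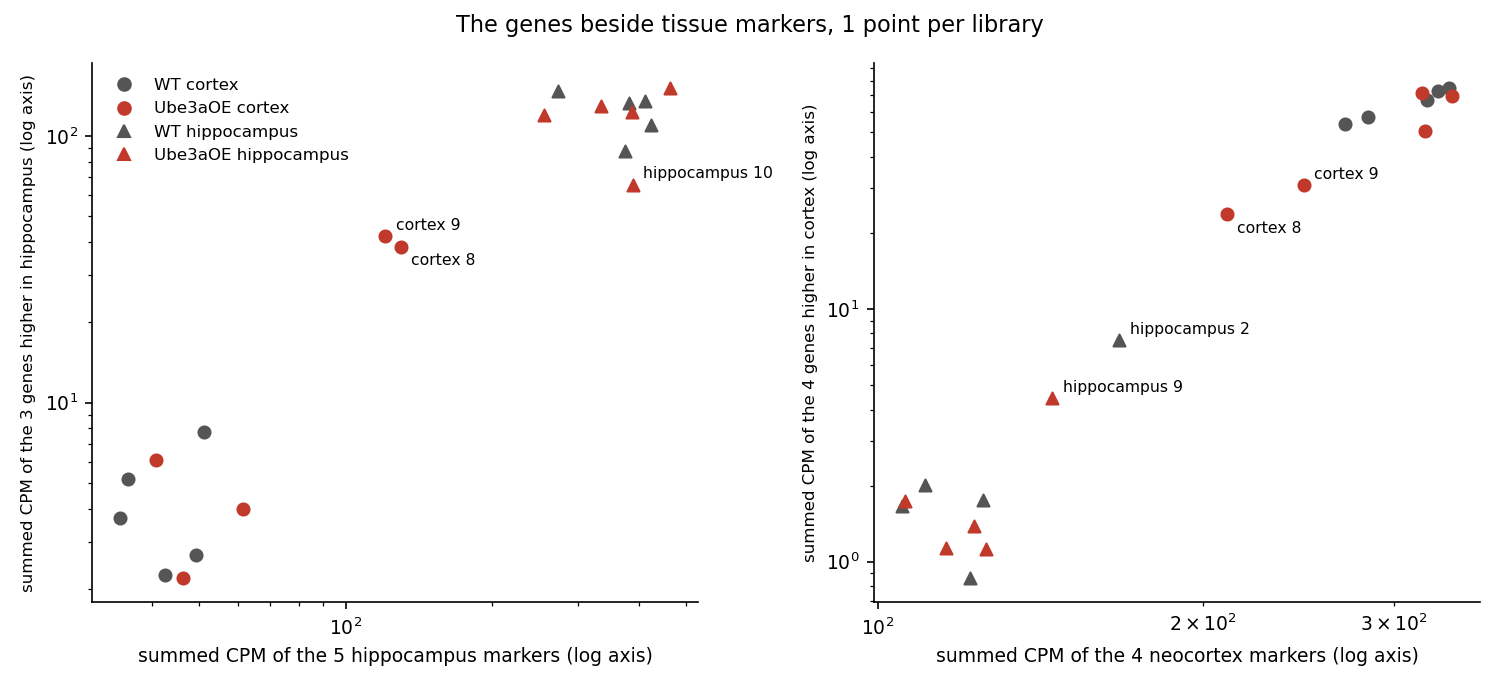
Summed CPM of the 3 genes higher in hippocampus against the 5 hippocampus markers (left), and of the 4 genes higher in cortex against the 4 neocortex markers (right), both axes logarithmic, 1 point per library. Cortices 8 and 9 lie between the clusters of the tissues in both panels (38.4 and 42.0 CPM at left, 23.8 and 30.8 CPM at right), and hippocampus 2 does so at right (7.51 CPM).

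In hippocampus none of the members was called between genotypes. edgeR's quasi-likelihood test called 1 of 15220 genes at an adjusted p under 0.05 (0.00657%), *Ube3a* itself, and 0 of the 4 members it fitted. None of the 4 had an unadjusted p under 0.05, against 7.21% of all genes, and DESeq2 called none of the 7. The log2 fold changes of Ube3aOE against WT, with 95% confidence intervals, were -0.02 for *Nts* (-0.58 to 0.54), -0.15 for *Car12* (-0.61 to 0.32), -0.13 for *St18* (-0.69 to 0.44) and -0.03 for *Hspb3* (-0.94 to 0.88), with edgeR adjusted p of 0.855 to 0.986. *Hspb3* was fitted on only 4 to 20 reads per hippocampus library. *Trpa1*, *A830009L08Rik* and *A830029E22Rik* had too few reads in hippocampus for the fit. Two-sided exact permutation tests over mice gave p = 0.698, 0.389 and 0.540 for them, where the smallest p that 5 against 5 mice can give is 0.00794.

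In cortex the fold changes were larger but none was called. The test called *Ube3a* alone of 14947 genes (0.00669%) and 0 of the 7 members, and DESeq2 none of the members. At an unadjusted p under 0.05 edgeR had 2 members, against 4.44% of all genes, and DESeq2 3, against 2.96% of all genes. *Nts* differed by 2.27 (log2; 0.03 to 4.52, edgeR unadjusted p = 0.0479, adjusted p = 0.960), *Car12* by 1.67 (0.46 to 2.87, unadjusted p = 0.0109, adjusted p = 0.960) and *St18* by 1.96 (-0.09 to 4.00, unadjusted p = 0.0584, adjusted p = 0.960). The 4 cortical genes had values of -0.37 (*Trpa1*), -0.28 (*Hspb3*), -0.63 (*A830009L08Rik*) and -0.25 (*A830029E22Rik*), with edgeR adjusted p of 0.960 to 0.973. Without mice 8 and 9 the value was -0.11 for *Nts* (-1.38 to 1.17), 0.45 for *Car12* (-0.34 to 1.25) and -0.42 for *St18* (-1.46 to 0.62), and *Trpa1* and *Hspb3* moved to 0.00 and 0.15. The weights that chose the genes were computed with these libraries, so the cortex contrast is not fully independent of the choice.

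**Figure D4:**
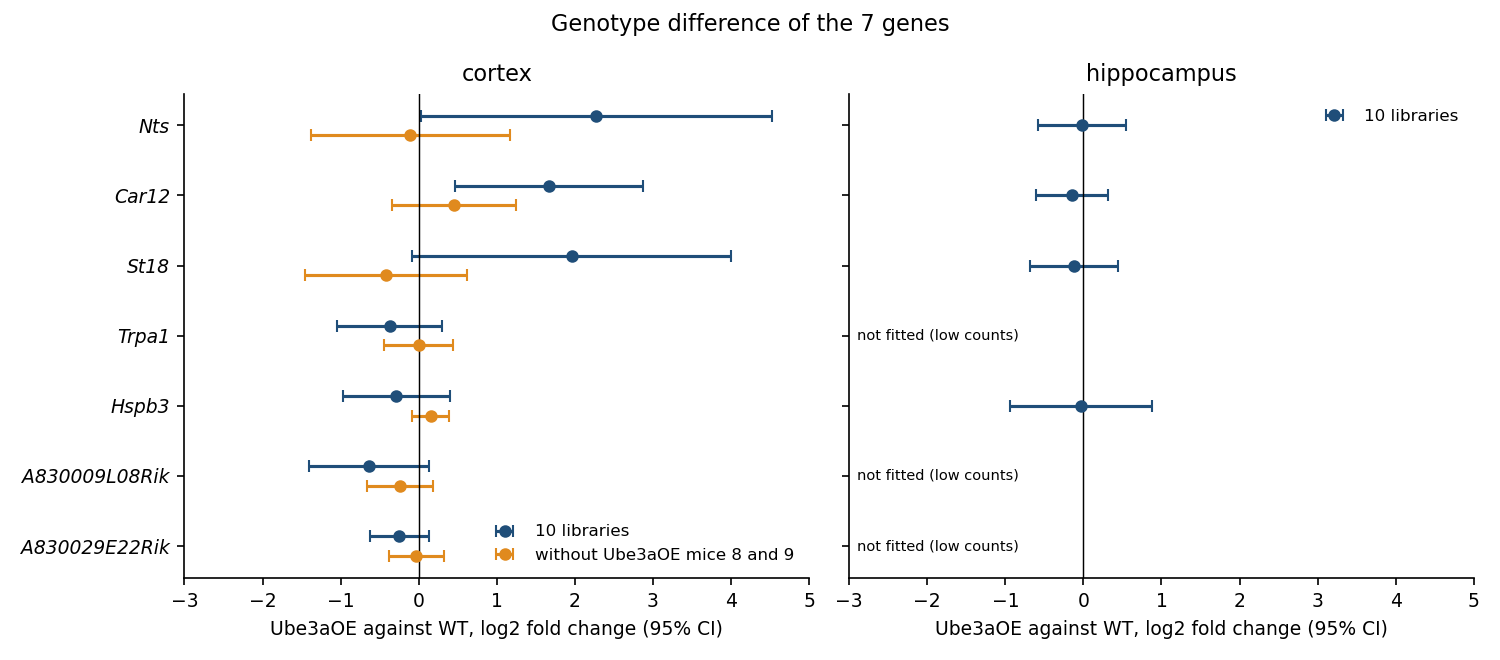
Log2 fold change of Ube3aOE against WT with 95% confidence interval in cortex (left, with all 10 libraries and without those of mice 8 and 9) and hippocampus (right), by edgeR. In cortex *Nts*, *Car12* and *St18* lie at 2.27, 1.67 and 1.96 with all libraries and at -0.11, 0.45 and -0.42 without mice 8 and 9, and every hippocampus interval spans 0.

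Whether the regional difference itself depended on genotype was asked with the interaction term. Within WT mice *Car12* differed between the regions by 4.66 ± 0.35 and within Ube3aOE mice by 3.28 ± 1.30 (log2, SD, n = 5 each), *Nts* by 5.11 ± 0.67 and 3.64 ± 1.93, and *St18* by 4.38 ± 0.51 and 3.22 ± 1.55. The interaction was -1.81 for *Car12*, -2.29 for *Nts* and -2.08 for *St18*, with edgeR unadjusted p of 0.00690, 0.0270 and 0.0310 and adjusted p of 0.997 for each. No gene passed an adjusted p under 0.05 with edgeR (0 of 15661; 590 genes or 3.77% had an unadjusted p under 0.05, among them these 3 members) or with DESeq2 (0, and 740 unadjusted). With mouse as a block, which takes in that both libraries came from 1 mouse, the values were -1.73, -1.84 and -1.72, with edgeR unadjusted p of 0.0194, 0.0771 and 0.0465 (6.03% of all genes under 0.05) and adjusted p of 0.797 for each, so that *Nts* was no longer under 0.05. Without mice 8 and 9 the 3 values were -0.61, -0.07 and 0.00. The weights that chose the genes were computed with the libraries of these mice, so the interaction too is not fully independent of the choice. The interaction of *Hspb3* was 0.26 (edgeR adjusted p = 0.998) and rests on 4 to 20 reads per hippocampus library. The other 3 cortical genes passed the filter of this fit through their cortex reads, and with too few reads in hippocampus for a genotype fit there no test of their interaction is given.

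Genes of the members' families were called in both directions. In the test between regions 50.9% of 15661 genes passed (25.3% higher in hippocampus and 25.6% higher in cortex), and the shares of the families can be read against that. Of 16 other TRP channels with enough reads (21 listed), 4 were higher in hippocampus and 4 in cortex, with a median log2 difference of 0.12, whereas the median over all genes was -0.01. *Trpc6*, a diacylglycerol-gated channel, was higher in hippocampus (4.99 ± 0.63 against 2.22 ± 0.96 CPM, SD, n = 10; log2 1.19 ± 0.16 SE, edgeR adjusted p = 3.97e-06). The cold sensor *Trpm8* was just past the threshold (log2 1.06, edgeR adjusted p = 0.0425) at 1.27 against 0.591 CPM and lost it with mouse as a block (0.85, adjusted p = 0.118) without the filter on low counts (1.06, adjusted p = 0.0820) and without any one of mice 1, 2, 4, 7, 9 or 10 (0.74 to 1.12, adjusted p of 0.0567 to 0.165). The count of TRP channels called fell to 5 without mouse 4, 9 or 10.

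Of 7 other small heat shock proteins and partners tested (9 listed), 3 were higher in hippocampus and 2 in cortex, with a median of 0.13. *Cryab*, alphaB-crystallin, went with *Hspb3*, at 57.6 ± 8.46 CPM in cortex and 12.3 ± 3.77 CPM in hippocampus (SD, n = 10; log2 -2.23, edgeR adjusted p = 4.30e-10), and so did the adjacent *Hspb2* at 1.41 against 0.205 CPM (log2 -2.75, adjusted p = 7.09e-08). *Hspb1* went the other way (log2 1.72, edgeR adjusted p = 0.00967), at 1.82 ± 2.05 CPM in hippocampus, and was not past the threshold without mouse 4 (1.13, adjusted p = 0.0668). Of 12 other carbonic anhydrases tested (15 listed), 5 were higher in hippocampus and 3 in cortex, with a median of 0.00. *Car9*, like *Car12* an enzyme of the cell surface, was higher in hippocampus (1.46 ± 0.52 against 0.367 ± 0.467 CPM, SD, n = 10; log2 2.50, edgeR adjusted p = 9.64e-06), and the cytosolic *Car13* was higher in cortex (log2 -2.42, adjusted p = 0.000406).

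For the neurotensin system, 3 of 6 genes for receptors and peptide processing were higher in hippocampus and 1 in cortex, with a median of 0.31. The receptors parted: *Ntsr1* was higher in cortex, where its ligand was low (71.6 ± 7.18 against 27.3 ± 8.95 CPM, SD, n = 10; log2 -1.40, edgeR adjusted p = 1.65e-07), and *Ntsr2* was higher in hippocampus (21.2 ± 4.95 against 10.9 ± 1.26 CPM; log2 0.95, edgeR adjusted p = 4.51e-07). The sorting receptor *Sort1* had a log2 difference of 0.10 (edgeR adjusted p = 0.197). Both relatives of *St18* passed, *Myt1* higher in hippocampus by 0.67 (edgeR adjusted p = 7.41e-07) and *Myt1l* lower there by -0.39 (adjusted p = 1.50e-05). Each had a smaller difference than the 3.41 of *St18* in the same fit, which the choice of *St18* by weight favors. No gene of these lists was called between genotypes in either tissue by edgeR or DESeq2. At an unadjusted p under 0.05 edgeR had 4 of the 39 tested in hippocampus, or 10.3% against 7.21% of all genes (*Trpv4*, *Trpm3*, *Car10* and *Car14*), and 1 of 38 in cortex, or 2.63% against 4.44% (*Trpc5*).

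**Figure D5:**
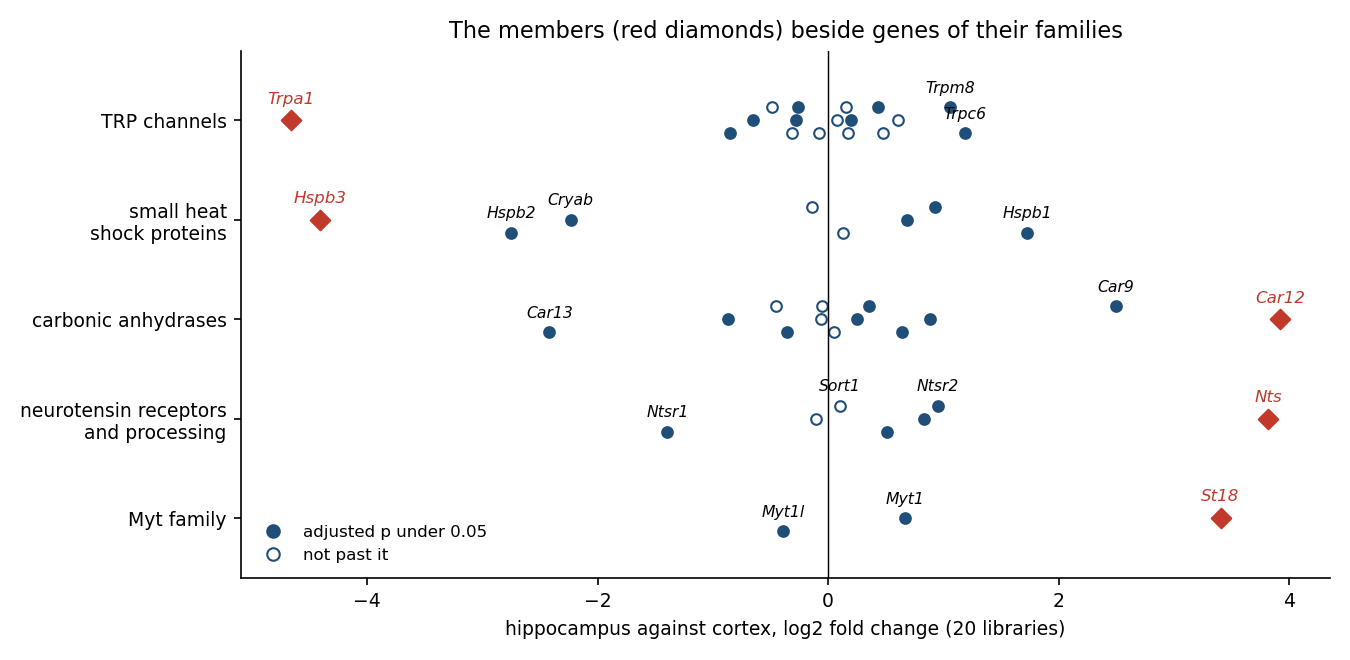
Hippocampus against cortex (log2 fold change over 20 libraries, edgeR) of the family genes tested, filled where the adjusted p was under 0.05, beside the 5 protein-coding members that have a listed family (red diamonds, shown without a test). The members lie at -4.66 to 3.92, outside the range of their own families, which the choice by weight favors.

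The nearest tested gene on each side of a member was looked up, 14 genes in all. Of these, 9 were called between regions, 5 higher in hippocampus and 4 in cortex, where 50.9% of all genes were called. Their median absolute log2 difference was 0.35, against 0.20 over all genes. Next to *Nts*, *Mgat4c* (90.3 kb away) was higher in hippocampus by 0.95 (log2, edgeR adjusted p = 3.78e-06), and *Rassf9* (21.7 kb away) differed by 0.20 (adjusted p = 0.284), or by 0.39 without mice 8 and 9 (adjusted p = 0.0481). Next to *Car12*, *Aph1b* (8.36 kb away) and *Usp3* (121 kb away) were higher in hippocampus by 0.39 and 0.22 (edgeR adjusted p = 3.12e-06 and 0.0176), *Usp3* without passing when mouse 5 (0.18, adjusted p = 0.0644) or mice 8 and 9 (0.21, adjusted p = 0.0519) were left out. The pseudogenes *Gm19026* and *Gm37108* beside *St18* had differences of 0.02 and 0.12 (edgeR adjusted p = 0.937 and 0.610).

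Beside the cortical genes, *Ssbp2* (72.2 kb from *A830009L08Rik*) was higher in cortex, at 207 ± 15.9 against 93.7 ± 33.7 CPM (SD, n = 10; log2 -1.15, edgeR adjusted p = 1.23e-05). *Arl15* near *Hspb3*, *Gm9947* near *Trpa1* and *Pdgfc* near *A830029E22Rik* were also higher in cortex, by -0.64, -0.67 and -0.50 (edgeR adjusted p = 5.09e-08, 0.00875 and 7.53e-05), *Gm9947* without passing when mice 8 and 9 were left out (-0.50, adjusted p = 0.0788). *Snx18* near *Hspb3* and *Ctso* near *A830029E22Rik* went the opposite way, by 0.30 and 0.55 (edgeR adjusted p = 0.000512 and 1.89e-06). *Kcnb2* (-0.17) and *Atg10* (0.23) were not past the threshold (edgeR adjusted p = 0.138 and 0.0798) and passed it without mouse 2 (-0.27, 0.00252) and without mouse 9 (0.33, 0.00931), respectively, *Atg10* also without mice 8 and 9 (0.29, 0.0377). The -1.15 of *Ssbp2* was the largest difference among the 14 neighbors. The members differed by 3.41 or more in size, which their choice by weight favors.

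Likeness of pattern was measured as Pearson's r of log2 CPM over the 20 libraries after the mean of each region had been taken out, so it reflects how libraries differ within a tissue, and all points share library, depth and dissected piece. *Nts* and *St18* were each other's nearest gene (r = 0.949), followed for both by *Nrp2*, a semaphorin receptor (0.913 and 0.942), and then by *Crim1* for *Nts* (0.910) and *Rftn1* for *St18* (0.935). Nearest to *Car12* were *Gm2115* (0.892), *Trpc6* (0.891) and *Nrp1*, the other neuropilin (0.890). Without cortices 8 and 9 the r of *Nts* with *St18* was 0.791 and those of the other pairs named here 0.584 to 0.745.

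Among the cortical genes, *Trpa1* was most like *L3mbtl4* (r = 0.882, and 0.874 without them), *Klhl4* (0.843 and 0.862) and the member *A830009L08Rik* (0.833 and 0.834). *A830009L08Rik* was most like *Prkcz* (0.859) and *Myh3* (0.843), *A830029E22Rik* most like *Pla2g4e* (0.846), *Pdzph1* (0.835) and *1700001L19Rik* (0.834), and *Hspb3* most like *Coq4* (0.865), *A430048G15Rik* (0.849) and *Grip2* (0.838). Without cortices 8 and 9 the r of the cortical genes with these nearest genes was 0.712 to 0.874. Hippocampi 2 and 9, the highest for *Trpa1* (50 and 30 reads), were kept in it. The hippocampus part of each r rests on 0 to 50 reads of the cortical gene per library.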

How the data were processed

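mRNA of cortex and hippocampus from 5 WT and 5 Ube3aOE mice was sequenced from stranded libraries. The authors deposited 1 file of whole-number read counts per gene for each library, unnormalized, followed by 5 summary lines for all other reads (18.8% to 30.3% of the total, left out here). The submitters' processing notes name HISAT2 2.1.0, HTSeq 0.11.2 and GRCm38, and the annotation and strand setting of the counting are not given in the sources used here. Groups came from the sample labels. Identifiers were matched to GENCODE M21 (47224 of 47729). The 7 members and all lists were chosen with earlier results of these data known.

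Counts were analyzed in R 4.3.3 with edgeR 4.0.16 (TMM, filterByExpr, robust quasi-likelihood F test; Benjamini-Hochberg adjustment over all genes fitted, threshold 0.05) and DESeq2 1.42.0 as an alternative, with Python 3.11.15, pandas 2.3.3, scipy 1.17.1 and matplotlib 3.10.9 for the rest. CPM refer to counts of genes that passed the filter, scaled by TMM factors, and log2 CPM carry a prior count of 2. Each tissue had its own fit of genotype over 10 libraries, and the region and interaction terms were fitted over all 20 libraries. A gene with 0 reads was given an upper limit of 3 counts, which covers counting error only. P values of the genotype tests within a tissue measure the spread between these mice. Those of the region and interaction terms treat both libraries of a mouse as independent, except with mouse as a block. The script was tested on simulated counts.

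Both libraries with 1 number come from 1 mouse by the labels. After group means were removed, the paired libraries correlated across genes with a median of 0.215 (-0.0367 to 0.248; over 0.1 in 9 of 10 mice). The labelled sex did not match the sex-linked genes in 2 WT mice, so sex was used in an alternative only. The text names all members, Ube3a, up to 3 genes of each family list with an adjusted p under 0.05 and a log2 difference over 1 (Ntsr1, Ntsr2, Sort1, Myt1 and Myt1l in any case), the nearest tested gene on each side of a member, the 3 genes most like each member (1 of them not reported here, nor 1 marker of neocortex), and the genes directly above and below the members by weight. Family genes named for an unadjusted genotype p, and single markers, were named after their values were seen. Promoter windows ran from 250 bases before to 50 after the RefSeq start. Alternatives were DESeq2, no filter, sex as a covariate, all libraries in 1 fit, mouse as a block, other scalings, a prior count of 0.5, leaving out each mouse and, chosen after the data were seen, leaving out mice 2, 8 and 9.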

Additional observations from a re-analysis of the deposited data

Results flagged for a closer look

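In 28 groups of 5 libraries (7 genes in 4 groups), a library far from the others of its group was searched for. Far meant a gap over 0.71 of the range of the group (Dixon's test). Chance would give about 1.4 such libraries in normal, independent groups. The CPM were not on a log scale and the genes shared libraries, so that number is a rough guide. There were 2 such libraries, both for *Trpa1* in hippocampus. In WT mice, mouse 2 was at 3.08 CPM (50 reads) and the nearest of the other 4 at 0.693 CPM, a gap of 0.775 of the range of the group. In Ube3aOE mice, mouse 9 was at 1.93 CPM (30 reads) and the nearest at 0.539 CPM, a gap of 0.822 of the range. The summed neocortex markers were higher in both libraries than in the other 8 hippocampi, at 167 and 145 CPM, with 3 and 2 of the 4 markers above the range of those 8 (*Cux2*, *Fezf2* and *Lamp5* in mouse 2, *Cux2* and *Lamp5* in mouse 9). *Fezf2* and *Lamp5* had like means in both tissues (57.3 and 14.8 CPM in hippocampus, 58.3 and 17.1 CPM in cortex), and the part of tissue content in this was not tested.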

How the results depend on the processing

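The signs of the 7 regional differences held in all 105 values over the alternatives, among them CPM without TMM, DESeq2 size factors and a prior count of 0.5. Every mouse lay on the same side of 0 for each gene, so leaving out mice could not reverse a sign. The members were chosen along this contrast, so the count of signs is no test of it. All 7 members stayed among the 20 largest weights without any one mouse, 5 did with a prior count of 0.5 and 2 with the variance stabilizing transformation. *Ube3a* was the only gene called between genotypes under each alternative, except that labelled sex as a covariate gave 2 in hippocampus (also *Kcne4*) and DESeq2 gave 5 in cortex. Leaving out each mouse in turn gave 5 to 9 TRP channels between regions, lowest without mouse 4, 9 or 10, and kept 1, 1 and 0 genes in the genotype and interaction tests.

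Some uncalled genotype values of the members changed sign, those of *Car12* in none of the tests. Without 1 mouse, the hippocampus log2 values ran from -0.19 to 0.38 for *Hspb3*, -0.14 to 0.14 for *Nts* and -0.30 to 0.0249 for *St18*, the CPM differences from -0.564 to 0.276 for *Trpa1* and -0.352 to 0.018 for *A830029E22Rik*, and the interaction from -1.04 to 1.08 for *Trpa1*, -0.0572 to 0.70 for *Hspb3*, -0.92 to 0.46 for *A830009L08Rik* and -1.36 to 0.33 for *A830029E22Rik*, the last 2 and *Trpa1* with too few hippocampus reads for a test. Without mice 8 and 9, chosen after seeing the data, the cortex values were 0.00025 for *Trpa1*, 0.15 for *Hspb3*, -0.11 for *Nts* and -0.42 for *St18*, and the interaction -0.0781 for *Hspb3* and 0.0029 for *St18*. Adjusted p of the members stayed at 0.596 or above throughout.

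With mouse as a block, which the pairing of libraries allows, the interaction of *Trpa1* was 0.0903, 8737 genes were called between regions (7973 without it), and *Trpm8* was the only named gene to lose its call. The pseudogene *Gm19026* crossed 0 (-0.11 to 0.0873 without 1 mouse, -0.0053 with the block and -0.0269 without mice 2, 8 and 9). The causes were not tested. The cortical genes had 0 to 50 reads in a hippocampus library, so that small changes there were not detectable at this depth.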
